A study of Mus musculus with 48 samples.

Results

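In 12 libraries from 6 of the 24 mice, 145 genes were abundant whose median over the libraries of the other mice was at or close to 0. These genes were chosen on the read counts themselves. Each had at least 50 CPM (the usual unit in which a count is scaled to the total of its library) in all 12 libraries of batch S061, while its median over the 36 libraries of the other batches was under 0.5 CPM. A further gene that met both bounds, ENSMUSG00000086503, was left out by the rule, which leaves 145 of the 42548 genes in the table. The difference between batch S061 and the other batches is therefore what defined the genes, and their levels across batches are given as a description with no test.

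The mice had been given bleomycin, a drug that injures the lung and leads to fibrosis, or saline. Batch S061 held 3 bleomycin mice on the control treatment (mice 17, 31 and 45) and 3 bleomycin mice given KIRA8 (mice 20, 32 and 41), with 2 females and 1 male in each arm and no saline mouse. Batch S135 held 3 saline mice, 2 bleomycin control mice and 2 KIRA8 mice, and batch S151 held 3 saline mice, 4 bleomycin control mice and 4 bleomycin mice given 3G9. The control treatment was labelled Vehicle in S061 and S135 and Axum8 in S151. Epithelium and whole lung were sequenced from every mouse, so that the 2 libraries of a mouse are not independent. Every library carries the same label for anti-HA immunoprecipitation, and the strain, the age, the driver of the tagged ribosomal protein, the doses and the time points are given in none of the sources used here.

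In RiboTag mice a recombinase switches on an HA tag on a ribosomal protein in the cells that carry the recombinase. Pulling down the tag enriches RNA on ribosomes of those cells, and some RNA of other cells is carried along. KIRA8 inhibits the kinase and RNase of IRE1α, a sensor of protein folding stress in the endoplasmic reticulum. 3G9 is an antibody against the integrin αvβ6, which activates TGFβ on epithelial cells of injured lung. The libraries were made from the 3′ ends of transcripts, so a count follows the number of transcripts and is not divided by gene length.

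The table names genes by Ensembl ID. The reference table of names used here matched 0 of the 42548 IDs, so the 145 genes are given by ID, and few of them. The 34 lists of symbols chosen for this work, which cover liver products, cell types of liver and lung, and other tissues, could not be applied. A working description of the 145 genes as transcripts of liver could therefore not be checked against markers, and no tissue is named for them here.

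Together the 145 genes took 6.00% to 12.7% of all counts in the 12 libraries of batch S061. In epithelium the share was 8.58%, 8.54% and 6.00% in control mice 17, 31 and 45, and 12.7%, 9.24% and 10.5% in KIRA8 mice 20, 32 and 41. In whole lung it was 9.79%, 7.41% and 8.74% in the same control mice and 7.19%, 8.92% and 7.85% in the same KIRA8 mice. No library of this batch was low. The total count of a library lay between 21790283 and 51797377 in S061, between 7163613 and 20468041 in S135 and between 24751240 and 36945995 in S151, and the depth in S061 overlaps that in S151.

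Outside S061 the summed share was far smaller in every library. It ranged from 0.00278% to 0.0529% in the 7 epithelial libraries of S135, with a median of 0.00453%, and from 0.00586% to 0.846% in the 7 whole lung libraries, with a median of 0.00831%. Both upper ends belong to bleomycin control mouse 149. In S151 the share ranged from 0.000690% to 0.00345% in the 11 epithelial libraries and from 0.00202% to 0.00687% in the 11 whole lung libraries. Between 19 and 142 of the 145 genes had a count in a library outside S061.

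**Figure D1:**
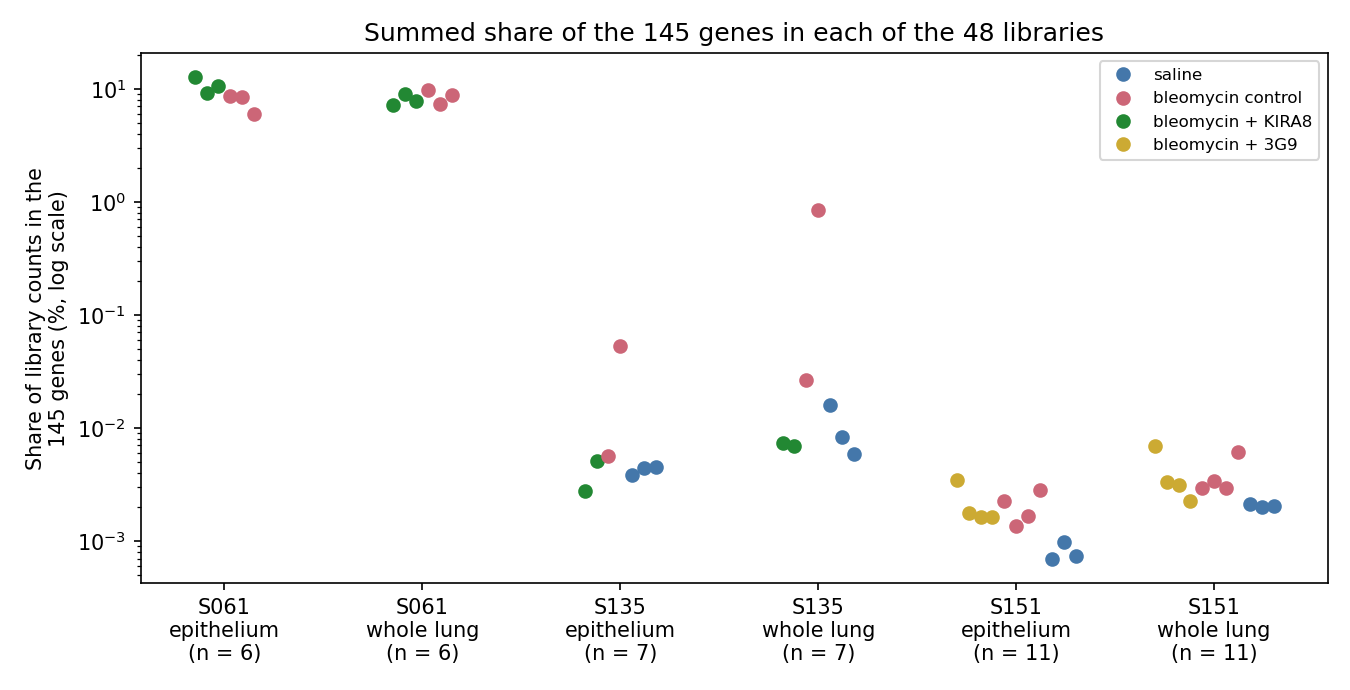
Summed share of all library counts (percent, log scale) taken by the 145 genes, 1 point per library, by batch and compartment and coloured by treatment arm. The 12 libraries of S061 lie between 6.00% and 12.7%, and the whole lung library of mouse 149 in S135, at 0.846%, is the highest of the other 36.

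The bounds of the choice cut through a continuous range of genes. The 3 members nearest to the lower bound had 50.4, 50.8 and 50.9 CPM in their lowest S061 library, and the 3 genes just outside it had 49.2, 49.0 and 48.6 CPM. The 3 members nearest to the upper bound had medians of 0.497, 0.479 and 0.475 CPM in the other batches, and the 3 genes just outside had 0.522, 0.524 and 0.549 CPM. A further 137 genes met the bound on the other batches with 10 to 50 CPM in their lowest S061 library. The median level of a member in S061 ran from 65.9 to 15055 CPM, with 17 members at 1000 CPM or more and 25 under 100 CPM. Of the 145 genes, 89 had a median of 0 CPM in the other batches.

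The most abundant member was ENSMUSG00000061808. In epithelium of S061 it had 15012, 14959 and 10818 CPM in control mice 17, 31 and 45 and 22313, 16258 and 18514 CPM in KIRA8 mice 20, 32 and 41. In whole lung it had 17876, 12925 and 15098 CPM in the control mice and 12467, 15594 and 13541 CPM in the KIRA8 mice. The KIRA8 mice lie above the control mice in epithelium, and the arms overlap in whole lung. This gene alone made 17.3% to 18.3% of the counts of the 145 genes in each of the 12 libraries. The 10 most abundant members made 50.1% to 52.4%. In the other batches ENSMUSG00000061808 had a median of 0.0653 CPM and its highest level, 586 CPM, in whole lung of mouse 149. The second most abundant member, ENSMUSG00000022868, had between 3537 and 7560 CPM in epithelial and between 4153 and 5595 CPM in whole lung libraries of S061, with its lowest epithelial level in mouse 45 and its highest in mouse 20, as for ENSMUSG00000061808.

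In S061 the members kept nearly fixed proportions to each other. Each member was expressed as a share of the summed counts of the 145 genes, and the coefficient of variation of that share over the 12 libraries had a median of 3.77% (quartiles 2.98% and 4.76%). Counting error alone gives a median of 1.30%. The CPM of the same members, which also moves with the summed share, varied by a median of 20.4%, against 17.7% for the 1954 other genes with at least 50 CPM in each library of S061. The share varied by less than 5% for 116 members, by more than 10% for 6 and by more than 20% for 2. Those 2, named after their values were seen, were ENSMUSG00000075014 (103%) and ENSMUSG00000082255 (33.0%). For the 137 genes below the bound of 50 CPM, the ratio to the summed member counts varied by a median of 9.41%, with a counting error of 3.40%.

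The proportions were also compared library by library, in both compartments and both arms. Across the 145 genes, the log10 share in a library of S061 correlated with the mean profile of the other mice of the batch with Pearson's r between 0.986 and 0.998. Without ENSMUSG00000075014, an alternative chosen after seeing the data, it lay between 0.993 and 0.999. These correlations run across genes within a batch, and genes are not independent replicates. This measure spans members of very different levels and hardly registers a change of 1 member. The SD over members of the log2 deviation from the mean profile, without ENSMUSG00000075014, ran from 0.05 to 0.18. The lowest correlation without that gene belongs to whole lung of control mouse 17. ENSMUSG00000082255 had 261 CPM in that library and 88.2 to 105 CPM in the whole lung libraries of the other 5 mice. ENSMUSG00000056035, also named after its values were seen, had 123 CPM in that library and 186 to 239 CPM in the others.

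Mouse 149 was the mouse outside S061 in which the genes were most abundant. Its whole lung library held 173154 counts of the 145 genes, a share of 0.846% (95% Wilson interval 0.842% to 0.850%), and 142 of them had a count. Its epithelial library held 8759 counts, a share of 0.0529% (0.0518% to 0.0541%), and 119 of them had a count. These intervals cover counting error only, since reads without molecular identifiers are not independent molecules. Of the 145 genes, 134 had their highest level outside S061 in the whole lung library of this mouse. The other bleomycin control mouse of S135, mouse 148, had shares of 0.0264% in whole lung and 0.00563% in epithelium.

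The members stood in other proportions to each other in mouse 149 than in S061. The correlation of its whole lung profile with the mean S061 profile was 0.580 over 142 genes, and that of its epithelial profile 0.507 over 119 genes, while every S061 library reached at least 0.986. Without ENSMUSG00000075014 these values were 0.653, 0.511 and at least 0.993. Its 2 libraries, which come from the same mouse, correlated with each other at 0.644 over 119 genes. The 142 genes had a median log2 ratio of -3.30 between this library and the median of S061 whole lung (quartiles -4.03 and -2.48, range -14.3 to 0.35). A single gene was higher there, ENSMUSG00000056035, with 257 CPM against a median of 201 CPM in S061. At the other end ENSMUSG00000075014, with 0.0489 CPM, stood against 1004 CPM. Both were named after their values were seen. In the 9 other libraries outside S061 with at least 1000 member counts, the correlation with the S061 profile lay between -0.153 and 0.184 over 47 to 91 genes, so those libraries did not show the S061 proportions at the depth they had.

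**Figure D2:**
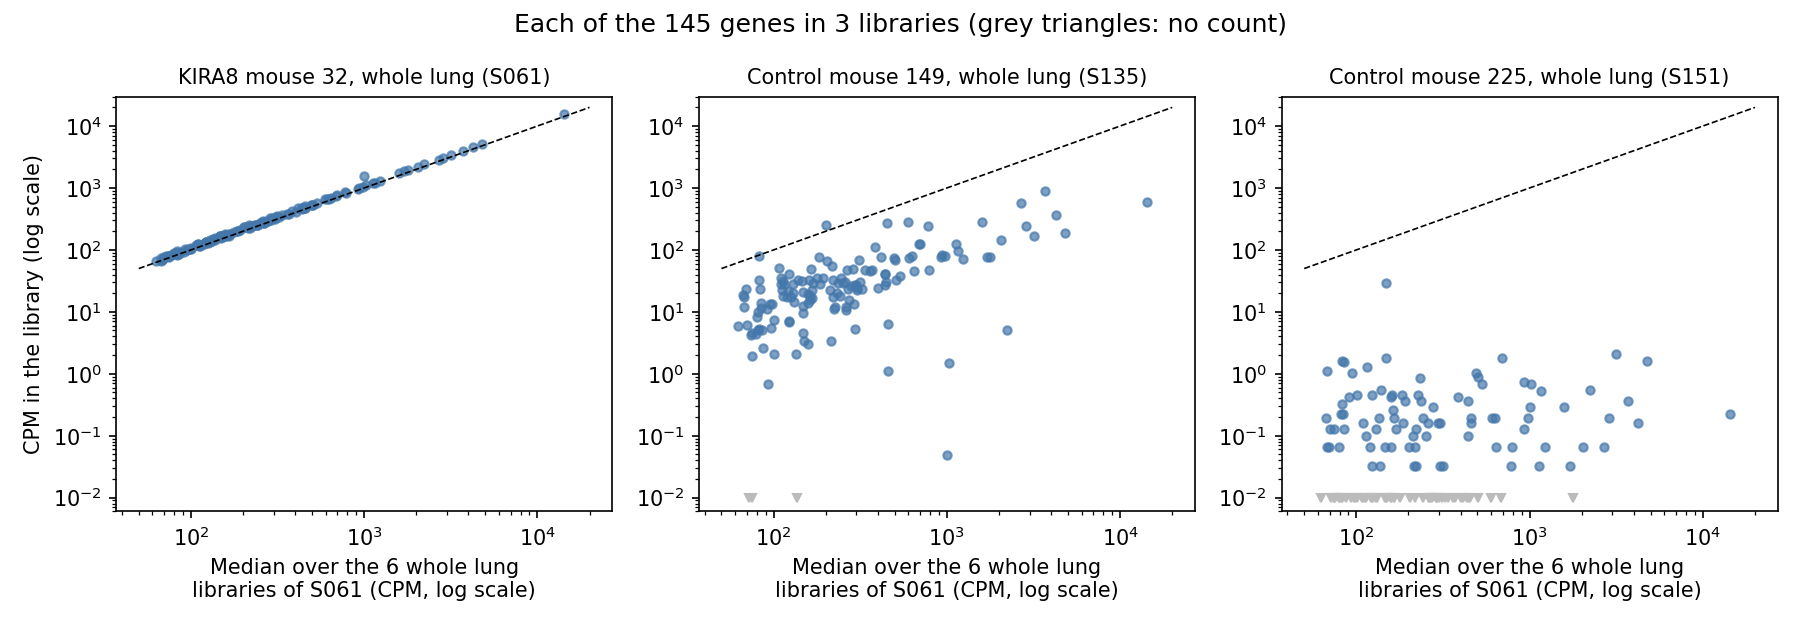
CPM of each of the 145 genes in a library (vertical, log scale) against its median over the 6 whole lung libraries of S061 (horizontal, log scale), for mouse 32 of S061, mouse 149 of S135 and mouse 225 of S151. The dashed line marks equal levels and grey triangles mark genes with no count. Genes lie on the line in mouse 32, mostly below it with wide scatter in mouse 149 (r = 0.580), and show no relation to it in mouse 225 (r = 0.0067).

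In the rest of S135 a single member made over 50% of the member counts in 3 of 12 libraries and at most 39.1% in the other 9. ENSMUSG00000088252 was the highest member in all 6 whole lung libraries other than that of mouse 149 and made 23.9% to 79.4% of the member counts there. It had 210 CPM in bleomycin control mouse 148 and 118 CPM in saline mouse 146, above its S061 whole lung median of 82.7 CPM, and 16.6 to 42.8 CPM in the other 4. ENSMUSG00000082255 was counted in all 14 libraries of S135, at 4.35 to 17.3 CPM, and was the highest member in all 6 epithelial libraries other than that of mouse 149, with 7.08 to 17.3 CPM and 25.1% to 39.1% of the member counts. Both were named after their values were seen. Without these 2 genes, the share in whole lung of mouse 148 was 0.00492% and that of saline mouse 146 was 0.00381%, against 0.0264% and 0.0160% with them. In whole lung of mice 225 and 218 of S151, ENSMUSG00000020017 made 46.6% and 38.9% of the member counts, at 28.8 and 26.7 CPM.

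Within S061, neither the treatment arm, the compartment nor the sex label was used to choose the genes, and each was tested over all genes with edgeR's quasi-likelihood test and Benjamini-Hochberg adjustment at an adjusted p of 0.05. The 145 genes moved almost as a single quantity in these tests, so that their counts do not represent 145 separate observations. In bulk RNA a smaller number of cells of a type and less RNA per cell cannot be told apart.

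KIRA8 was compared with the control treatment in epithelium to ask whether inhibition of IRE1α went with a change of these transcripts. None of the 145 genes passed the test, while 144 of them had an unadjusted p under 0.05, as had 23.2% of all genes tested. All 145 had a higher estimate in KIRA8 mice, with a median log2 fold change of 0.65 (quartiles 0.63 and 0.68, range 0.21 to 0.79). Over all 15268 genes tested the median was -0.03 with an SD of 0.57, and 0.878% passed the test. The smallest adjusted p of a member was 0.0652, for ENSMUSG00000032080. It had 57.8, 76.2 and 54.9 CPM in control mice 17, 31 and 45 and 94.7, 85.0 and 97.6 CPM in KIRA8 mice 20, 32 and 41, a log2 fold change of 0.72 ± 0.16 (SE), with the arms apart. ENSMUSG00000051716 followed with 205 ± 33.1 CPM in control and 312 ± 43.0 CPM in KIRA8 mice (SD, n = 3 each). Its log2 fold change was 0.77 ± 0.19 (SE), with an adjusted p of 0.0784 by edgeR.

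In CPM, every KIRA8 library lay above every control library for 121 of the 145 genes, against 8.13% of all genes tested, and below for 0 of them, against 25%. The summed share was 10.8% ± 1.76 in KIRA8 and 7.71% ± 1.48 in control epithelium (SD, n = 3 each). With 3 mice against 3, an exact permutation test of a single value cannot go below p = 0.1. The call depended on the analysis and on 1 mouse. DESeq2 called 132 of the genes higher, and 10.1% of all genes in either direction. Without a filter on low counts edgeR called 115, and 4.78% of all genes. Without KIRA8 mouse 32, the KIRA8 mouse with the lowest epithelial share, edgeR called 101, and 6.52% of all genes.

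In whole lung the same comparison gave no call. The median log2 fold change was -0.15 (quartiles -0.19 and -0.12), and 141 of the 145 estimates were below 0. The median lay between -0.29, without mouse 32, and -0.04, without mouse 17, when a mouse was left out. It was -0.05 without mouse 20, and -1.35 in a fit of all 24 whole lung libraries with terms for arm and batch. That fit adds libraries that the rule held near 0, so nothing is read from its value. Among them the whole lung share was 0.846% in control mouse 149 and 0.00734% and 0.00694% in KIRA8 mice 154 and 155. None of the genes passed the test, none had an unadjusted p under 0.05, DESeq2 called none, and 0.643% of all genes passed. The arms overlapped for all 145 genes, while 13.1% of all genes tested lay wholly above and 7.58% wholly below the control libraries. The summed share was 7.99% ± 0.872 in KIRA8 and 8.65% ± 1.19 in control mice (SD, n = 3 each). The members with the smallest p were ENSMUSG00000002992, at -0.30 ± 0.16 with an adjusted p of 0.405, and ENSMUSG00000075014, at 0.78 ± 0.42 with an adjusted p of 0.432, both by edgeR.

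The difference between these 2 results was tested as an interaction of treatment and compartment with the mouse as a block. None of the 145 genes passed, 140 had an unadjusted p under 0.05, as had 18.5% of all genes, and 0.0817% of all genes passed. The median interaction was 0.81 on the log2 scale. The smallest adjusted p by edgeR was 0.103, for ENSMUSG00000027048, with an interaction of 0.94 ± 0.24 (SE). That gene had 76.0, 66.0 and 51.6 CPM in control and 113, 80.6 and 94.8 CPM in KIRA8 epithelium, and 87.9, 65.5 and 67.9 CPM in control and 60.2, 66.0 and 70.4 CPM in KIRA8 whole lung. DESeq2 called 22 of the genes higher, and 3.43% of all genes in either direction. Without the low-count filter edgeR called 126, and 5.17% of all genes. Without mouse 32 it called 93.1% of the 145 genes higher, and 8.60% of all genes.

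**Figure D3:**
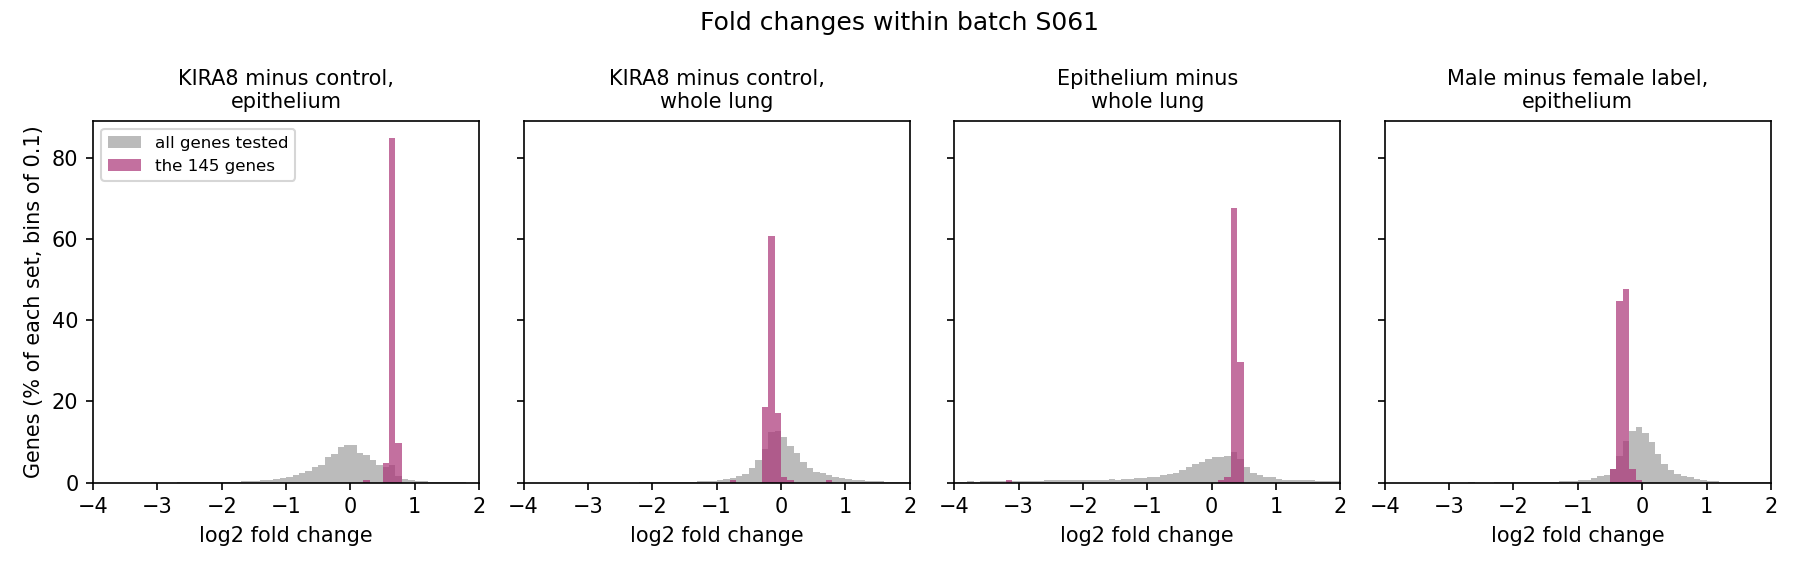
Distribution of fitted log2 fold changes (horizontal, shown from -4 to 2) in percent of each set (vertical, bins of 0.1) for 4 comparisons within S061, with all genes tested in grey and the 145 genes in purple. The 145 genes form a narrow peak in each panel, at medians of 0.65, -0.15, 0.38 and -0.30, and 1 gene lies apart at -3.11 in the comparison of compartments.

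Epithelium and whole lung of the same mice differed in 1 of the 145 genes. ENSMUSG00000075014 was lower in epithelium, with 97.7 ± 27.6 CPM against 1061 ± 456 CPM in whole lung (SD, n = 6 mice). On the log2 scale it fell by 3.11 ± 0.33 (SE), with an adjusted p of 2.83e-05 by edgeR with the mouse as a block. In epithelium it had 98.5, 118, 72.3, 141, 72.9 and 82.6 CPM in mice 17, 31, 45, 20, 32 and 41. In whole lung it had 356, 889, 1077, 931, 1575 and 1542 CPM in the same order. All 6 mice were higher in whole lung, by 3.61-fold to 21.6-fold, with the smallest ratio in mouse 17.

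The other 144 genes had positive estimates, higher in epithelium, with a median over the 145 genes of 0.38 (quartiles 0.36 and 0.40), and none of them passed. Of all genes tested 48% passed in this comparison. Without the mouse as a block 16 of the 145 genes passed, 15 of them higher in epithelium, and 50.4% of all genes passed. DESeq2 with the block called 4 of the 145, and 52.2% of all genes. Without control mouse 45, 122 passed, 121 of them higher, and 47.9% of all genes passed. The median was 0.20 without KIRA8 mouse 20. The median log2 ratio of epithelium to whole lung over the 145 genes was -0.16, 0.22 and -0.54 in control mice 17, 31 and 45, and 0.84, 0.08 and 0.45 in KIRA8 mice 20, 32 and 41. These ratios are of CPM, in which mice 17 and 45 were lower in epithelium and the other 4 higher. With the library sizes of TMM scaling, an alternative added after seeing the data, the median of mouse 17 turned to 0.10 and only mouse 45 was lower in epithelium, at -0.44. Within a mouse the genes lay close together, with quartiles of -0.59 and -0.50 in mouse 45 and of 0.78 and 0.88 in mouse 20.

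**Figure D4:**
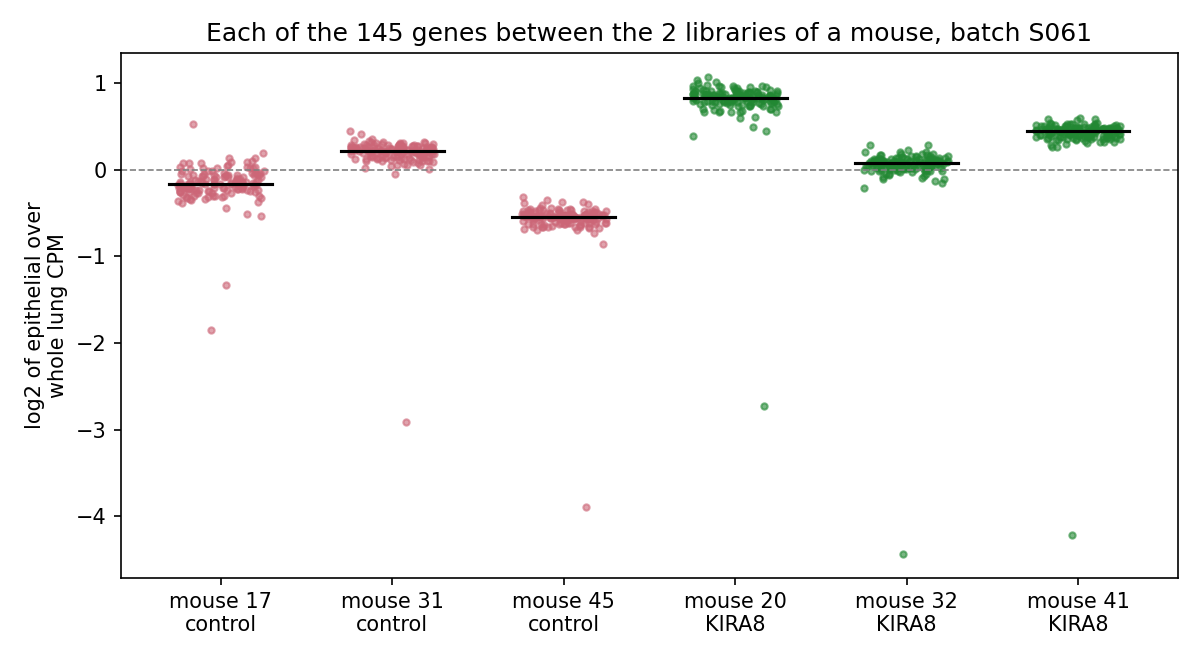
Log2 ratio of epithelial to whole lung CPM (vertical) for each of the 145 genes in each of the 6 mice of S061, with black bars at the medians. The medians run from -0.54 in mouse 45 to 0.84 in mouse 20, and ENSMUSG00000075014 is the lowest point in all 6 mice.

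In the other batches the summed share of counts was higher in whole lung than in epithelium in 18 of 18 mice, and in 14 of 18 with TMM library sizes, under which mice 153, 155, 204 and 228 turned. The log2 ratio of epithelium to whole lung ranged from -4.0 in mouse 149 to -0.37 in saline mouse 153. In S061 the share was higher in whole lung in 2 of 6 mice, and in 1 with TMM library sizes.

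Male and female mice of S061 were compared within arms, with 2 males and 4 females. In epithelium all 145 estimates were lower in males, with a median log2 fold change of -0.30. The median was -0.06 without male 45, -0.55 without male 41 and -0.19 without female 20, so its size rested on single mice. None passed the edgeR test, none had an unadjusted p under 0.05, DESeq2 called none, and 0.0126% of all genes passed. ENSMUSG00000044005, which had the smallest p (0.068 unadjusted, adjusted p = 0.908 by edgeR), had 65.8 CPM in male 45 and 125 CPM in male 41, against 108 to 149 CPM in the 4 females. Male 45 was the lowest and male 41 within the females. Without female mouse 32, edgeR called 93.1% of the 145 genes lower in males, and 7.99% of all genes in either direction. In whole lung the median was -0.02, with 57 estimates above and 88 below 0. None passed or had an unadjusted p under 0.05, DESeq2 called none, and 0.0229% of all genes passed.

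Bleomycin control mice were compared with saline mice in S135 and S151, where the genes were near 0, with batch as a term. The low-count filter kept 69 of the 145 genes in epithelium and 81 in whole lung. The rule had held the genes near 0 over these libraries, and a gene so held can pass the filter only through the libraries in which it is high. The counts below are of genes selected in this way, and nothing is read from them. What set their direction was not tested. Without the filter edgeR called 17 of the 140 members tested in epithelium and 27 of 145 in whole lung, all higher. Of all genes, 4.02% and 4.36% passed at that setting. In epithelium edgeR called 8 of the 69 higher, where 6.13% of all genes tested passed in either direction. Without mouse 149 it called 1 of the 51 that passed the filter, where 6.69% of all genes passed. In whole lung it called 27 of the 81 higher, where 7.79% of all genes passed. Without mouse 149 it called 6 of 65, where 8.58% of all genes passed. Leaving out saline mouse 146, 152 or 153 of S135 left 4 in epithelium, where 5.64%, 5.86% and 6.06% of all genes passed. In whole lung it left 11, 8 and 9, where 6.49%, 6.23% and 5.98% passed. Without bleomycin control mouse 225 of S151, 17 were called in whole lung, where 4.88% of all genes passed. Some omissions raised the counts. Without mouse 148, 33 of 78 were called in whole lung, where 3.62% of all genes passed. Without KIRA8 mouse 154 or 155, 10 of 119 were called in epithelium and 37 of 142 in whole lung. There 5.7% and 6.7% of all genes passed.

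ENSMUSG00000032083 was the member with the smallest p in epithelium. It is given by its levels only, since nothing is read from that test. It had 39.2 CPM in mouse 149 and 0.999 CPM in mouse 148, against 0.716 to 1.32 CPM in the saline mice of S135. In S151 it had 0.159 to 0.374 CPM in bleomycin control mice and 0 to 0.102 CPM in saline mice. ENSMUSG00000028356, the member with the smallest p in whole lung, had 77.7 CPM in mouse 149 and 0.618 CPM in mouse 148. Over the saline whole lung libraries it had 2 counts in S135 and 0 in S151, where bleomycin control libraries had 13. ENSMUSG00000035041, with the next smallest p in whole lung, had no count in any saline whole lung library. Both are given by their levels only. Every bleomycin control library of whole lung held counts of it. Its levels there were 28.9 CPM in mouse 149, 0.495 CPM in mouse 148 and 0.0967 to 0.127 CPM in S151. The S151 values are near the floor, with 14 counts over the bleomycin control libraries together. No fold or test is given, because the saline libraries are at 0 and the gene passed the filter through libraries of the mice given bleomycin. The 4 whole lung libraries of mice given 3G9 had 0.322 to 1.21 CPM of the same gene.

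Within S151 the summed share was low in all arms, and bleomycin control lay above saline without overlap in both compartments. These libraries are among the 36 over which the rule held the genes near 0. The share of all genes that separate these arms in this way was not taken, so nothing is read from the separation. The libraries of these arms held 202 to 1893 member counts each, and the highest member differed between libraries. ENSMUSG00000026621 made 34.4% of the member counts in saline epithelium of mouse 221, and ENSMUSG00000020017 made 46.6% in whole lung of mouse 225. Whether the genes moved as a set was not tested. In epithelium the summed share was 0.00203% ± 0.000662 in bleomycin control mice (n = 4) and 0.000803% ± 0.000153 in saline mice (n = 3). In whole lung it was 0.00388% ± 0.00155 and 0.00206% ± 0.0000641 (SD, n = 4 and 3). In the 3G9 mice it was 0.00212% ± 0.000886 in epithelium and 0.00389% ± 0.00204 in whole lung (SD, n = 4 each), and these mice overlapped the bleomycin control mice. In S135 without mouse 149, the whole lung share ran from 0.00586% to 0.0160% in saline mice, and it was 0.00734% and 0.00694% in the 2 KIRA8 mice and 0.0264% in mouse 148.

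Genes outside the set were ranked by the correlation of log2(CPM + 0.5) with that of the summed CPM of the 145 genes over the 36 libraries of S135 and S151, among 15824 genes. The highest values were 0.842 for ENSMUSG00000005089 and 0.820 for ENSMUSG00000035540. Without the 2 libraries of mouse 149 they were 0.759 and 0.293 over 34 libraries, so that the second rests on that mouse. In S061 these genes had medians of 31.8 and 2262 CPM, and the second missed the choice with a median of 0.584 CPM in the other batches. The libraries share batch and compartment, and the values are given as a description.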

How the data were processed

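The authors deposited 1 table of raw read counts per Ensembl gene and library, whole numbers with no normalization, for 48 libraries of 24 mice. The submitters' processing notes name STAR 2.5.2b and the GRCm38 build. The counting program, its use of strand and the annotation are given in none of the sources used here, so reads of near-identical or overlapping genes may be split between them. Each column was matched to a sample by the mouse number and compartment letter in its name, with E read as epithelium and I as whole lung. The column of the whole lung library of mouse 218 carries a suffix that no label explains.

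Counts were scaled to CPM by the column total in Python 3.11.15 with pandas 2.3.3. The members and the lists were chosen with earlier results of these data known. Tests ran on all genes past filterByExpr with TMM scaling and the quasi-likelihood test of edgeR 4.0.16 in R 4.3.3, with Benjamini-Hochberg adjustment and a threshold of 0.05, and were checked on simulated counts. DESeq2 1.42.0, no low-count filter, TMM without the members, other terms or libraries in the fit, other bounds and leaving out each mouse were the alternatives. The standard error of a log2 fold change was taken as its size over the square root of edgeR's F. The compartment tests use the mouse as a block, because the labels give both libraries of a mouse the same mouse number. Replicates are separate mice.

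Per-library values were planned for members in groups by role, which could not be formed without symbols. They are given instead for the most abundant members, for the members called in a test or, where none was called, for those with the smallest p, at most 2 per comparison and direction. Members named after their values were seen are marked as such. No gene or protein sequence is shown, since the IDs were matched to none.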

Additional observations from a re-analysis of the deposited data

Results flagged for a closer look

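Of the 10 groups of 4 or more libraries in which the summed share of the 145 genes was examined, 2 held a library far from the others, where chance flags about 1 in 20 groups. The epithelial library of mouse 218 had a share of 0.00345%, the highest of the 4 libraries of mice given 3G9, the other 3 lying between 0.00162% and 0.00178%. Bleomycin control mouse 225 had a whole lung share of 0.00617%, the highest of the 4 of that arm in S151, the other 3 lying between 0.00296% and 0.00341%. In the latter library ENSMUSG00000020017 made 46.6% of the member counts. The whole lung library of mouse 149 belongs to an arm of 2 mice within its batch and could not be examined in this way there.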

How the results depend on the processing

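With other bounds the choice gave 216 members (at least 20 CPM in S061), 97 (at least 100 CPM), 103 (a median under 0.1 CPM elsewhere) and 164 (under 1 CPM) in place of 145, and CPM over TMM library sizes gave a number within 1.5 times of it. The median whole lung share in S061 was 8.29%, and 9.96% of the counts outside the 10 genes with the highest counts over all libraries. The lowest correlation with the S061 profile was 0.986, and 0.993 without ENSMUSG00000075014. Calls are given here as percent of the 145 genes, also where fewer of them were tested. In KIRA8 epithelium they went from 0% to 91% with DESeq2 and 79.3% without the low-count filter, and ranged from 0% to 69.7% over the mice left out. Of all genes 10.1%, 4.78% and, at the upper end of that range, 6.52% passed. The interaction went from 0% to 15.2% and 86.9% under the same 2 settings, with a range of 0% to 93.1%. Of all genes 3.43%, 5.17% and, at the upper end, 8.60% passed. Between compartments the calls went from 0.69% to 2.76% with DESeq2 and 11% with no replicate block for the mouse, with a range of 0.69% to 84.1%. Of all genes 52.2%, 50.4% and, at the upper end, 47.9% passed. Male against female epithelium had a range of 0% to 93.1%, with 7.99% of all genes at the upper end. Bleomycin against saline went in epithelium from 5.52% (8 of 69 tested) to 11.7% without the low-count filter (17 of 140) and 2.76% with all 24 libraries (4 of 145). Of all genes 6.13%, 4.02% and 8.72% passed there. Over the mice left out, epithelium ranged from 0.69% (1 of 51) to 7.59% (11 of 69), with 6.69% and 8.10% of all genes. Whole lung ranged from 4.14% (6 of 65) to 25.5% (37 of 142), with 8.58% and 6.7% of all genes. Whole lung shares were above epithelial ones in 18 mice of S135 and S151 in CPM and in 14 with TMM library sizes. KIRA8 and sex in whole lung stayed at 0% in every alternative run. In whole lung, ENSMUSG00000056035 reversed from 0.27 to -0.12 without mouse 45 and was 0.62 without mouse 41 (log2, male minus female), and no such value was called. Where an arm was left with 2 mice or 1, the fit pooled the spread over libraries. Libraries outside S061 other than those of mouse 149 held at most 4274 member counts, which limits what can be seen of single genes there. The cause of each change was not tested.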
